A study of Mus musculus with 6 samples.

Results

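The complexins Cplx1, Cplx2 and Cplx3 were described across pulldown libraries of mouse hippocampus, by the rows of the count table that carry these 3 gene symbols, out of 55416 genes. Each symbol matched 1 row. The family was chosen by its CPM in these EU and PBS libraries, which were known when it was proposed, so its levels are given as a description, with no test. The mice had been injected under the skin with ethynyluridine (EU) at 50 mg/kg, or with an equal volume of phosphate-buffered saline (PBS), once a day from postnatal day 3 to 5, and the hippocampus was taken on postnatal day 36. EU is a uridine analogue that enters newly made RNA and can be coupled to biotin by click chemistry, and EU and PBS RNA were taken alike through the biotin reaction, a streptavidin pulldown and total RNA sequencing. There were 3 EU and 3 PBS libraries. The comparison asks which RNAs made in the first postnatal days are still present weeks later, with the PBS pulldown as the measure of background binding. The labels give no strain, genotype or sex, and do not say whether each library is 1 animal, so the spread between libraries may be partly technical.

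Complexins are small presynaptic proteins that bind the assembled SNARE complex, the bundle of proteins that drives fusion of synaptic vesicles. Together with the calcium sensor synaptotagmin they hold primed vesicles ready and promote fast release when calcium enters. Complexin 1 and complexin 2 are the main forms in the brain, with complexin 2 prominent in excitatory forebrain neurons and complexin 1 also found in many inhibitory neurons. Complexin 3 is best known from ribbon synapses of the retina and, in the neocortex, as a marker of subplate and layer 6b neurons. It ends in a CaaX box, a signal for attachment of a lipid anchor that complexin 1 and complexin 2 lack.

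In GRCm39, Cplx1 (ENSMUSG00000033615) lies on the minus strand at chr5:108666420-108697890, Cplx2 (ENSMUSG00000025867) on the plus strand at chr13:54519162-54531730 and Cplx3 (ENSMUSG00000039714) on the minus strand at chr9:57507275-57513564. No other gene of the table overlapped any of these spans. The nearest, Gm43364 at 57 bases from Cplx1, held 0 to 4 counts per library, and Lman1l at 804 bases from Cplx3 held 0 to 1. The coding sequences of Cplx1 and Cplx2 were identical at 323 of 400 aligned bases (80.8%), and those of Cplx1 and Cplx3 at 261 of 389 (67.1%). The longest run of identical bases between the Cplx1 and Cplx2 transcripts was 32 bases, starting at coding base 28 of both, and it is shown because a read lying wholly inside it could not be given to a single gene. Coding bases 4 to 83 are printed from the GENCODE M21 transcripts, with the shared run in capitals:
Cplx1: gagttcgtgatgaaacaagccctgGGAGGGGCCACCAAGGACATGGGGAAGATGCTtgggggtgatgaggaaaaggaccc
Cplx2: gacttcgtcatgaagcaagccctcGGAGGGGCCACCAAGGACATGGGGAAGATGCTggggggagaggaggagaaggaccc
The longest run that Cplx3 shared was 12 bases with Cplx1 and 13 bases with Cplx2.

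The coding ends show where the members part. The last 45 coding bases before the stop codon are printed with the last 4 codons in capitals, which in Cplx3 encode the CaaX box:
Cplx1: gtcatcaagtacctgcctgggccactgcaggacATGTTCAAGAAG
Cplx2: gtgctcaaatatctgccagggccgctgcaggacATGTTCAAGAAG
Cplx3: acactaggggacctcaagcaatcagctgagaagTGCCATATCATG
The last 4 codons were the same letters in Cplx1 and Cplx2. Without the stop codon, the coding sequence spans 402 bases in Cplx1, 402 in Cplx2 and 474 in Cplx3. Most of each transcript lies outside it. The longest GENCODE transcript had 2189 bases for Cplx1, 4928 for Cplx2 and 2859 for Cplx3, of which 1578, 4211 and 2248 lie after the last coding codon, stop codon included. Uridine, the base that EU replaces, was read as the share of T. It was 22.4% in the Cplx1, 20.8% in the Cplx2 and 24.4% in the Cplx3 transcript, against a median of 24.8% over the longest transcripts of 21901 protein-coding genes.

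The libraries held 39886723 to 58301239 counts. PBS replicate 2 was unlike the others: its correlations with them averaged 0.938, where those of the other libraries averaged 0.970 to 0.977, and 19243 genes were detected in it, where the others had 23816 to 26372. Levels are given as CPM, counts relative to library size, scaled by the trimmed mean of M values (TMM). They are thus relative to the other RNAs of the same library. The spike-in rows held 0 counts, so the total amount of RNA captured cannot be read. A log2 fold near 0 therefore does not show that EU capture was absent. The hippocampal markers were present in all libraries: Prox1, of dentate granule neurons, stood at 149 to 161 CPM in EU and 162 to 208 CPM in PBS. By edgeR's quasi-likelihood test with Benjamini-Hochberg adjustment over the 18511 genes tested, 0 genes passed, a background of 0%. At an unadjusted p under 0.05 there were 710 genes (3.84%) with higher and 749 (4.05%) with lower values in EU. DESeq2 called 294 genes (1.59%), limma voom 12, and edgeR without the filter on low counts 248 (0.797%). Groups with no overlap in CPM were found for 8.52% of tested genes with EU higher and for 7.18% with EU lower.

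All 3 complexins passed the filter on low counts. Among them Cplx2 had lower values in EU, Cplx3 had higher values and Cplx1 stood at nearly the same mean in both groups. These are levels in RNA of a whole tissue after a pulldown. A lower level can come from fewer cells of a type, from less RNA per cell or from less capture. These cannot be told apart.

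Cplx2, the form prominent in excitatory forebrain neurons, was the complexin with the most counts, 49213 to 82867 per library. It stood at 1223, 1227 and 1246 CPM in EU replicates 1 to 3, and at 1390, 1339 and 1438 CPM in PBS replicates 1 to 3. Every EU library was below every PBS library, and the EU libraries lay close together. Means were 1232 ± 12.5 CPM in EU and 1389 ± 49.5 CPM in PBS (SD, n = 3 each), and the fitted log2 fold was -0.17 (SE 0.0411). Of all tested genes, 79.9% had a higher log2 fold. The 95% counting interval (exact binomial, which covers counting error only) was 1236 to 1257 CPM in the highest EU library and 1328 to 1350 CPM in the lowest PBS library.

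Cplx1, the form also found in many inhibitory neurons, stood at 409, 424 and 417 CPM in EU replicates 1 to 3, and at 372, 443 and 433 CPM in PBS replicates 1 to 3. The EU values lay inside the PBS range, which PBS replicate 1 opened downwards. The means were 416.7 ± 7.63 CPM in EU and 416.0 ± 38.2 CPM in PBS (SD, n = 3 each), and the log2 fold was 0.002 (SE 0.066). Of all tested genes, 51.7% had a higher log2 fold.

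Cplx3, the form of retinal ribbon synapses and subplate neurons, was rare, with 338 to 430 counts per library in EU and 120 to 258 in PBS. It stood at 7.26, 8.43 and 10.2 CPM in EU replicates 1 to 3, and at 2.55, 5.99 and 2.88 CPM in PBS replicates 1 to 3. The groups did not overlap, and PBS replicate 2, the library unlike the others, lay well above PBS replicates 1 and 3. The means were 8.63 ± 1.49 CPM in EU and 3.81 ± 1.90 CPM in PBS (SD, n = 3 each). The log2 fold was 1.18 (SE 0.31), and 2.37% of tested genes had a higher fold. The counting interval of the lowest EU library, 6.54 to 8.03 CPM, overlapped that of PBS replicate 2, 5.28 to 6.77 CPM. The log2 fold was 1.66 without PBS replicate 2 and 0.96 without PBS replicate 1.

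The paralogue Cplx4, which lies outside the set described here and belongs with Cplx3 to the retinal forms, held 8 counts in EU replicate 3 and 0 in the other libraries. It did not pass the filter. A count of 0 allows up to 0.0582 CPM in EU replicate 1 and 0.0748 in EU replicate 2, and up to 0.0639, 0.0697 and 0.0520 CPM in PBS replicates 1 to 3.

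**Figure D1:**
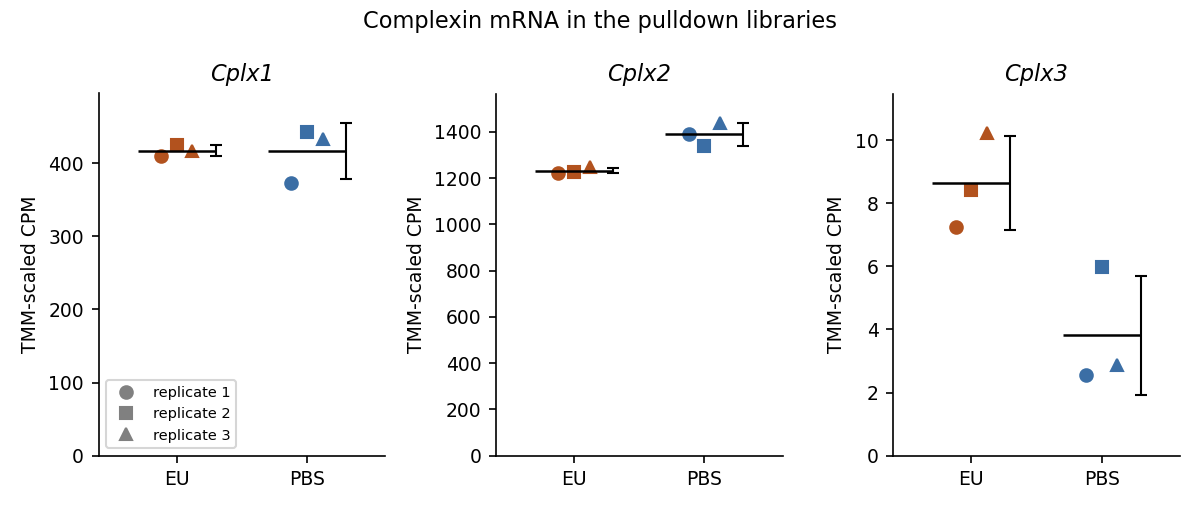
CPM (TMM-scaled, linear axes from 0) of Cplx1, Cplx2 and Cplx3 in the EU and PBS libraries, where symbols mark the replicate number, horizontal lines the mean and bars the SD of 3 libraries. Cplx1 overlaps between the groups, Cplx2 is lower in all EU libraries (1223 to 1246 CPM, against 1339 to 1438 in PBS), and Cplx3 is higher in all EU libraries (7.26 to 10.2 CPM, against 2.55 to 5.99).

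Levels of different genes were compared per kilobase of the longest transcript. On that scale Cplx2 averaged 250.0 ± 2.49 CPM per kb in EU and 281.9 ± 10.1 in PBS, Cplx1 190.3 ± 3.50 in EU and 190.1 ± 17.5 in PBS, and Cplx3 3.02 ± 0.520 for EU and 1.33 ± 0.664 for PBS libraries (SD, n = 3 each). The order Cplx2, Cplx1, Cplx3 was the same in all 6 libraries, with gaps beyond the spread between libraries. The place of Cplx3 did not depend on the length used, but that of the other two did. With the median length of each gene's protein-coding transcripts, which for Cplx1 includes a model of 434 bases, Cplx1 stood above Cplx2, at 317.7 ± 5.83 against 250.0 ± 2.49 CPM per kb in EU and 317.2 ± 29.2 against 281.9 ± 10.1 for PBS (SD, n = 3 each).

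Ratios within a library do not depend on how libraries are scaled to each other. For every 100 Cplx2 counts there were 33.4, 34.6 and 33.4 Cplx1 counts in EU replicates 1 to 3, and 26.8, 33.1 and 30.1 in PBS replicates 1 to 3. The EU libraries were all above the PBS libraries, by a narrow margin over PBS replicate 2. EU libraries averaged 33.8 ± 0.654 and PBS libraries 30.0 ± 3.16 (SD, n = 3 each). The mean log2 ratio was higher by 0.18 in EU, with an SD of 0.11 within groups. That difference was 0.10 without PBS replicate 1.

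For every 10000 Cplx1 counts there were 177, 199 and 245 Cplx3 counts in EU replicates 1 to 3, and 68.6, 135 and 66.5 in PBS replicates 1 to 3. These did not overlap either, and EU libraries averaged 207 ± 34.6 and PBS libraries 90.1 ± 39.1 (SD, n = 3 each). Cplx3 made up 0.443% to 0.610% of all complexin counts in EU libraries and 0.145% to 0.335% in PBS libraries.

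**Figure D2:**
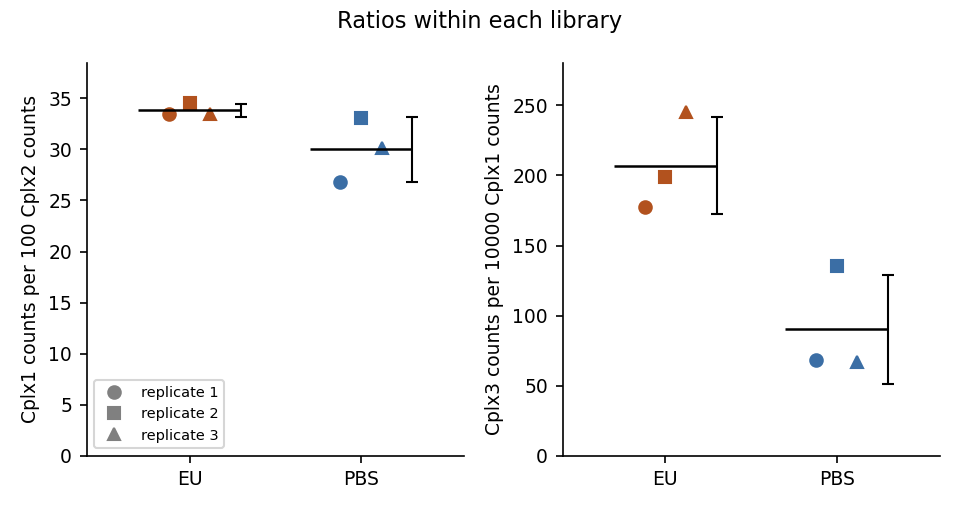
Cplx1 counts per 100 Cplx2 counts (left) and Cplx3 counts per 10000 Cplx1 counts (right) within each EU and PBS library, with the mean (line) and SD (bar) of 3 libraries and linear axes from 0. The EU libraries lie at 33.4 to 34.6 and at 177 to 245, against 26.8 to 33.1 and 66.5 to 135 in PBS.

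The partners of complexin at the synapse were read from 5 lists of release machinery, 57 genes in all, of which 56 were in the table and tested. By edgeR's quasi-likelihood test, 0 of the 56 passed over all genes in either direction, as for the background of 0%. At an unadjusted p under 0.05 there were 3 genes with higher and 9 with lower values in EU (backgrounds 3.84% and 4.05%). DESeq2 called 5 of the 56 (Doc2b, Slc17a7, Syn2, Syt3 and Unc13c), against 1.59% of all genes it tested. Groups with no overlap in CPM were found for 2 genes with EU higher (background 8.52%) and 8 with EU lower (background 7.18%). The median log2 fold of the 56 was -0.006, beside 0.011 over all tested genes.

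The SNARE proteins that complexin binds stood at close to equal levels in the groups, with a median log2 fold of 0.002 over 6 genes. Snap25, which supplies a pair of helices of the complex, stood at 1426 ± 31.4 CPM in EU and 1435 ± 68.2 CPM in PBS (SD, n = 3 each), and its log2 fold was -0.009 (SE 0.0454). The vesicle SNARE Vamp2 had a log2 fold of -0.09 (SE 0.0773). The plasma membrane syntaxin Stx1a stood at 62.0, 82.1 and 87.2 CPM in EU replicates 1 to 3, and at 48.1, 65.0 and 59.5 CPM in PBS replicates 1 to 3, and the groups overlapped (log2 fold 0.42, edgeR adjusted p = 0.458).

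Among factors that assemble or take apart the SNARE complex, 6 of 11 had higher and 5 lower values in EU (median log2 fold 0.01). The priming factor Unc13a had a log2 fold of 0.03 (SE 0.0606) and the ATPase Nsf -0.07 (SE 0.0547). The smallest p of the 56 genes belonged to Unc13c, a Munc13 priming factor, at 37.3 ± 2.95 CPM in EU and 23.8 ± 3.32 CPM in PBS (SD, n = 3 each; log2 fold 0.65, edgeR adjusted p = 0.125). It stood at 35.4, 35.9 and 40.7 CPM in EU replicates 1 to 3, and at 22.5, 27.6 and 21.4 CPM in PBS replicates 1 to 3, with no overlap. Without PBS replicate 2, when 0.103% of all genes passed, Unc13c was the 1 release gene that did. The chaperone Dnajc5 had a log2 fold of -0.12 (edgeR adjusted p = 0.631).

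The list of calcium sensors held synaptotagmins, Doc2 proteins and Rph3a, not sorted by whether each binds calcium. Its values were spread widely around 0, with 8 of 13 higher in EU and a median log2 fold of 0.09. Syt1, the main fast sensor of forebrain synapses, stood at 1206 ± 35.7 CPM in EU and 1220 ± 71.5 CPM in PBS (SD, n = 3 each), and its log2 fold was -0.02. Syt2, the fast sensor of many hindbrain and inhibitory synapses, had 0.46 (edgeR adjusted p = 0.640), Syt3 -0.36 (edgeR adjusted p = 0.324) and Doc2b, a high-affinity sensor, -0.26 (edgeR adjusted p = 0.326). Among the other release regulators 6 of 8 values were lower in EU (median -0.09), with Cadps2, a priming factor of dense-core vesicles, at -0.23 (edgeR adjusted p = 0.459), Snph, syntaphilin, at -0.12 (edgeR adjusted p = 0.519) and Stxbp6 at -0.10 (edgeR adjusted p = 0.789).

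The 18 synaptic vesicle genes had a median log2 fold of -0.05, and 10 of them were lower in EU. The synapsin Syn2 stood at 530.7 ± 22.2 CPM in EU and 658.8 ± 46.1 CPM in PBS (SD, n = 3 each; log2 fold -0.31, edgeR adjusted p = 0.144). Slc17a7, the vesicular glutamate transporter VGLUT1 of forebrain excitatory neurons, stood at 985, 1072 and 1087 CPM in EU replicates 1 to 3, and at 1182, 1235 and 1216 CPM in PBS replicates 1 to 3 (log2 fold -0.21, edgeR adjusted p = 0.256). The EU libraries were all below the PBS libraries, as for Cplx2. Synpr, synaptoporin, had -0.22 (edgeR adjusted p = 0.469), while Slc32a1, the vesicular GABA transporter, had 0.006. Slc17a6, a further vesicular glutamate transporter, went the other way from Slc17a7, at 0.55 (edgeR adjusted p = 0.536). That was the largest log2 fold of the list, and its groups overlapped.

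**Figure D3:**
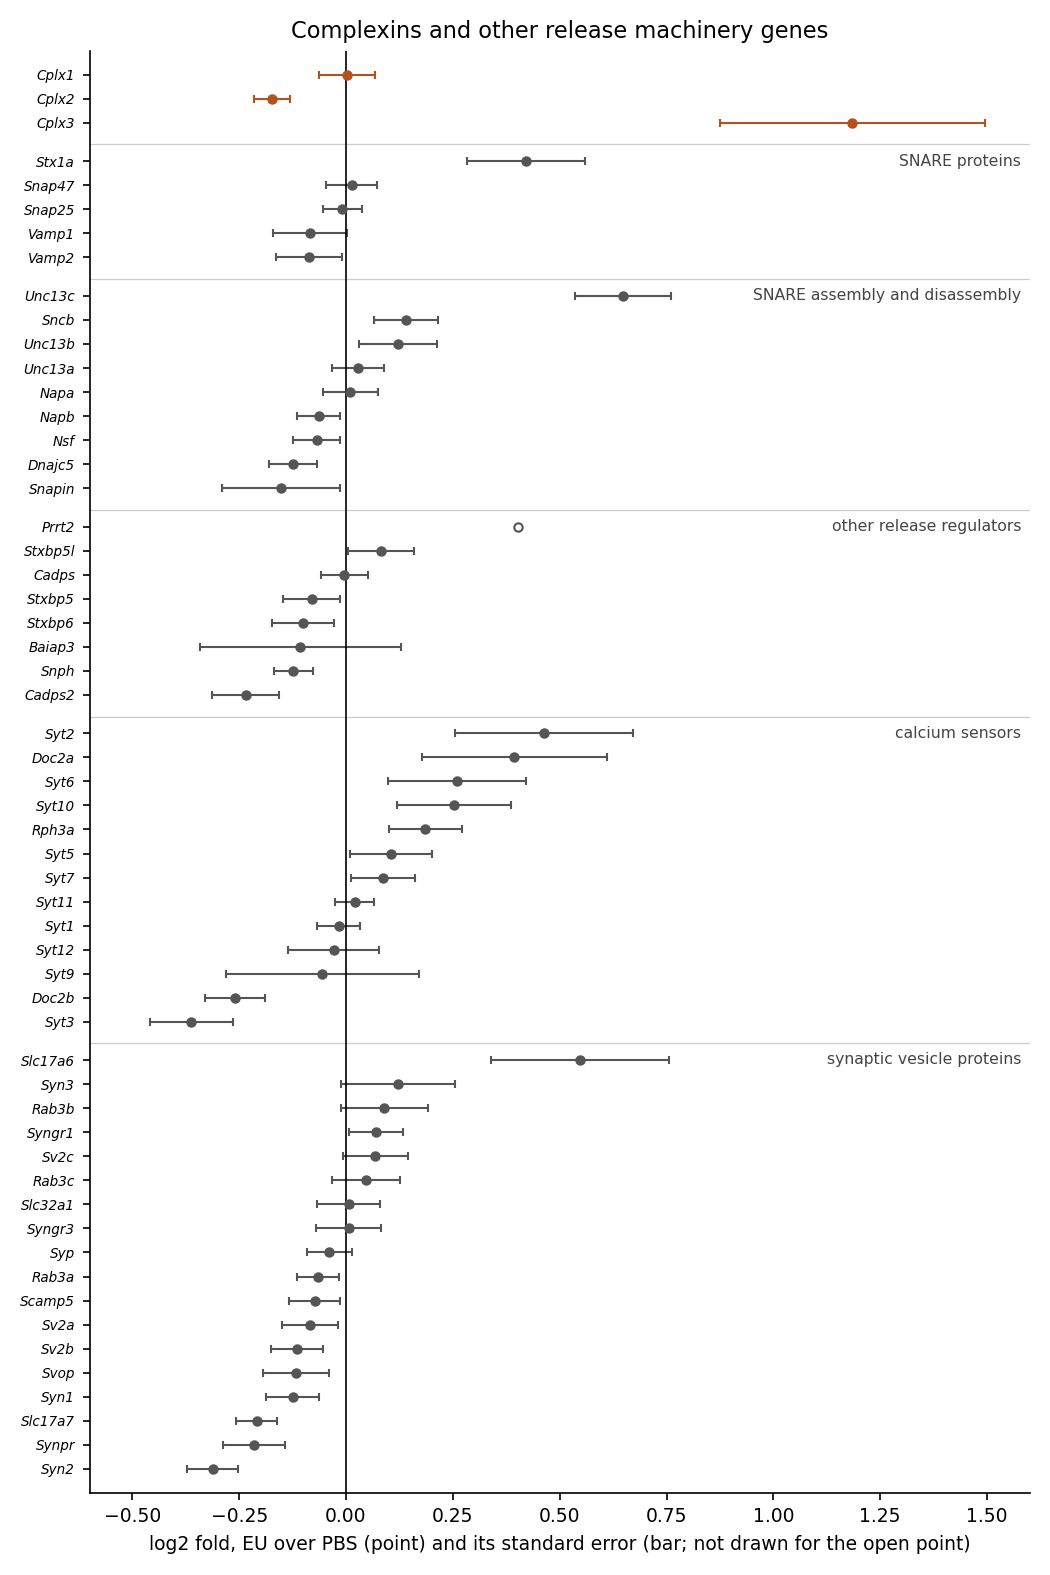
Fitted log2 fold of EU over PBS (points) with its standard error (bars) for the 3 complexins, which are shown without a test, and genes of the 5 release machinery lists, 0 of which passed edgeR's adjusted threshold. Cplx3 at 1.18 lies to the right of all plotted release genes, and Cplx2 at -0.17 lies near Slc17a7 and Synpr, while the open point is Prrt2, at under 1 CPM and with an SE of 1.15.

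Markers of the neurons that use the complexins differed between the libraries too, and their part in the complexin values was not tested. Cplx3 is a subplate and layer 6b marker, and 10 of 12 genes of that list had higher values in EU (median log2 fold 0.18), with 0 passing. At an unadjusted edgeR p under 0.05 there were 2 with higher and 1 with lower values (backgrounds 3.84% and 4.05%). Ccn2, a further subplate marker, stood at 16.4 ± 1.79 CPM in EU and 10.8 ± 0.930 CPM in PBS (SD, n = 3 each; log2 fold 0.60, edgeR adjusted p = 0.215). Foxp2, a layer 6 transcription factor, stood at 6.31 ± 2.48 CPM in EU and 2.48 ± 0.727 CPM in PBS (SD, n = 3 each; log2 fold 1.34, edgeR adjusted p = 0.309), whereas Hs3st4 had lower values in EU (log2 fold -0.27, edgeR adjusted p = 0.299). The summed level of the list was 366 to 398 CPM in EU and 336 to 388 CPM in PBS, so it overlapped, and all 12 genes held counts in all libraries.

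Genes of the neocortical layers had a median log2 fold of 0.34 over 9 genes, 6 with higher values in EU and 0 passing. At an unadjusted edgeR p under 0.05 there were 6 genes with higher and 0 with lower values in EU (backgrounds 3.84% and 4.05%). Groups with no overlap were found for 4 genes with EU higher (background 8.52%) and 0 with EU lower (background 7.18%). The list was chosen with earlier results known, so these counts are a description. Cux2, a transcription factor of upper layers, stood at 68.7, 89.2 and 97.6 CPM in EU replicates 1 to 3, and at 52.8, 66.1 and 51.8 CPM in PBS replicates 1 to 3 (log2 fold 0.58, edgeR adjusted p = 0.256). The groups did not overlap, and PBS replicate 2 was the highest PBS library, as for Cplx3. Its relative Cux1 had a log2 fold of 0.34 (edgeR adjusted p = 0.272). The deep-layer factors Fezf2 and Etv1 and the layer 4 marker Scnn1a had lower values in EU, with log2 folds of -0.15, -0.07 and -0.11. Other layer 4 and deep-layer genes had higher values, Rorb at 0.32 (edgeR adjusted p = 0.473) and Tbr1 at 0.41 (edgeR adjusted p = 0.322). Layer 4 and deep-layer genes thus lay on both sides of 0, with an SE of 0.236 for Scnn1a. Whether the direction followed the layer was not tested. Of the 9 genes, 3 had their libraries in the same order as Cplx3 within both groups, as had 4.05% of all tested genes. That order was not particular to this list. It was found for 3 of 6 SNARE protein genes, 3 of 13 calcium sensors and 3 of 18 synaptic vesicle genes, and for 0 of 12 subplate genes. The summed level of the list was 527, 609 and 626 CPM in EU replicates 1 to 3, and 423, 531 and 488 CPM in PBS replicates 1 to 3. PBS replicate 2, the PBS library with the most Cplx3, was the PBS library with the most of this list. Among PBS libraries it also had the most of the subplate (388 CPM), pyramidal (571 CPM) and interneuron (945 CPM) lists, and the least of the dentate list (530.2 CPM).

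Markers of hippocampal principal neurons had lower values in EU, as Cplx2 had, and 0 passed. All 7 dentate granule neuron genes and 6 of 7 pyramidal neuron genes were on that side, with median log2 folds of -0.20 and -0.18. At an unadjusted edgeR p under 0.05, 4 dentate and 3 pyramidal genes had lower values (background 4.05%). On the higher side there were 0 dentate genes and 1 pyramidal gene (background 3.84%). These lists too were chosen with earlier results known. Fibcd1, of CA1 pyramidal neurons, stood at 92.8 ± 10.7 CPM in EU and 132.6 ± 5.90 CPM in PBS (SD, n = 3 each; log2 fold -0.52, edgeR adjusted p = 0.106). C1ql2, of dentate granule neurons, stood at 51.5 ± 4.30 CPM in EU and 66.0 ± 3.04 CPM in PBS (SD, n = 3 each; log2 fold -0.36, edgeR adjusted p = 0.221). Bok (-0.34), Neurod6 (-0.18), Plk5 (-0.52) and Calb1 (-0.20) had lower values as well, and the exception was Wfs1 (0.51). Summed levels overlapped for both lists, at 508 to 530.5 CPM in EU and 530.2 to 666 CPM in PBS for the dentate list, and at 476 to 591 CPM in EU and 524 to 571 CPM in PBS for the pyramidal list. The dentate overlap was narrow, between EU replicate 1 (530.5 CPM) and PBS replicate 2 (530.2 CPM). In the pyramidal list only EU replicate 3 (591 CPM) exceeded the lowest PBS library, and Wfs1 gave 232 CPM of that sum.

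Genes of GABAergic interneurons, cells in which Cplx1 is often prominent, had a median log2 fold of 0.07 over 10 genes, with summed levels of 897 to 935 CPM in EU and 800 to 945 CPM in PBS. The lowest sum was that of PBS replicate 1, which was also lowest in Cplx1. That library was lowest for other lists as well, such as SNARE proteins (2947 CPM), calcium sensors (2735 CPM), neocortical layers (423 CPM) and astrocytes (6839 CPM). It was highest for the dentate (666 CPM) and choroid plexus (2833 CPM) lists. Reln, a secreted protein of interneurons and Cajal-Retzius cells, had 0.26 (edgeR adjusted p = 0.198), Vip 0.22 (edgeR adjusted p = 0.851) and Pvalb 0.18 (edgeR adjusted p = 0.815). Of the non-neuronal lists, the median log2 folds were 0.04 for astrocytes, -0.05 for oligodendrocytes, 0.10 for microglia and 0.03 for vascular cells. Choroid plexus genes had -0.28, with summed levels from 518 to 1927 CPM in EU and from 878 to 2833 CPM in PBS.

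**Figure D4:**
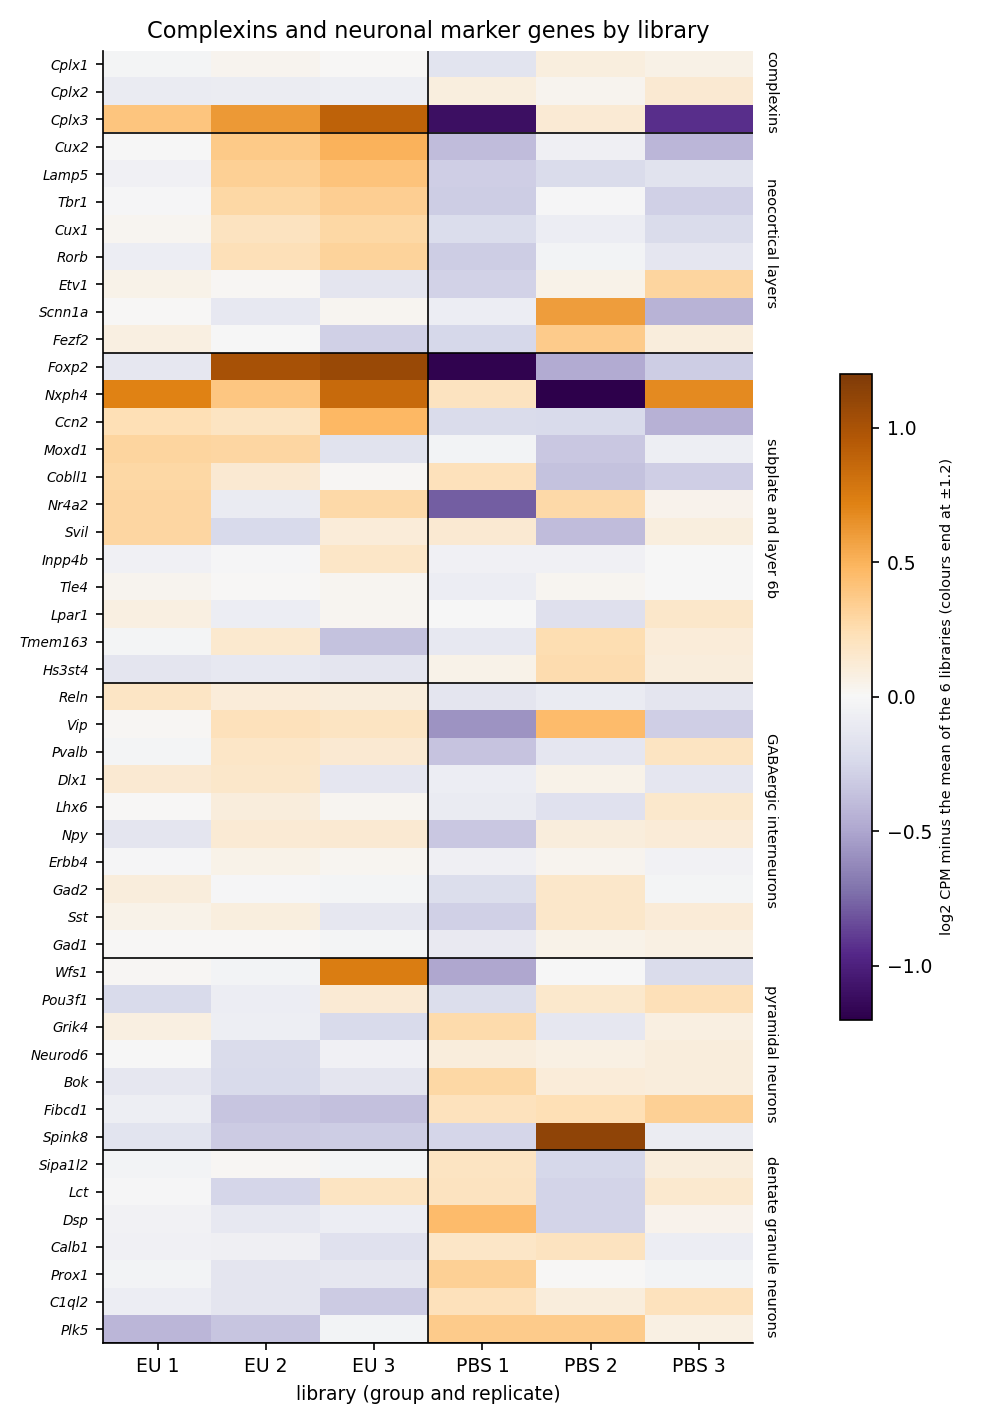
Log2 CPM of the complexins and of 5 neuronal marker lists in each EU and PBS library, minus the mean of the 6 libraries (colour, ending at ±1.2), with genes in rows. Cplx3 and Cux2 are high in EU replicates 2 and 3 and low in PBS replicates 1 and 3, and most dentate granule and pyramidal neuron genes are higher in PBS.

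Across the 6 libraries the complexins did not follow a common pattern. Pearson's r of log2 CPM was -0.08 between Cplx1 and Cplx2, 0.40 between Cplx1 and Cplx3 and -0.91 between Cplx2 and Cplx3. These and the following r are descriptions over 6 points that share the libraries, their depth and the 2 groups. The 5 protein-coding genes most like Cplx1, among those with a mean of at least 10 CPM, were Lancl2, Slc36a1, Recql5, Phf13 and Cend1 (r 0.979 to 0.989), with log2 folds from -0.07 for Phf13 to 0.001 for Slc36a1. Those most like Cplx2 were Chpf, Dag1, Selenow, Pfkl and Cacng8 (r 0.989 to 0.994), with log2 folds from -0.28 to -0.09. Among those most like Cplx3 were Plxdc1, Pdzrn3, Rasa3 and Mat2a (r 0.985 to 0.998), with log2 folds from 0.06 for Rasa3 to 0.84 for Plxdc1. With 6 libraries such values are common: r was at least 0.9 for 97 genes with Cplx1, 151 with Cplx2 and 121 with Cplx3, of about 9160 candidates each.

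By list, the median r with Cplx3 was 0.88 for neocortical layer genes, 0.19 for subplate and layer 6b genes, -0.60 for dentate granule, -0.61 for oligodendrocyte and -0.73 for pyramidal neuron genes, beside -0.03 over the candidates. The neocortical list ranged from -0.09 to 0.96. The subplate list, to which Cplx3 belongs by its known use as a marker, ranged from -0.55 to 0.87. With Cplx1 the median r was 0.70 for interneuron genes, 0.56 for SNARE proteins, -0.52 for choroid plexus and -0.58 for dentate granule genes, beside 0.02 over the candidates. With Cplx2 it was 0.62 for oligodendrocyte, 0.50 for pyramidal, 0.47 for dentate and -0.73 for neocortical layer genes, beside 0.01.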

How the data were processed

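The authors deposited 1 table of raw counts of reads for the 6 libraries, not normalized. The build GRCm39 and the tools featureCounts 2.0.1, STAR 2.7.10b and bcl2fastq 2.20.0 are named in the submitters' processing notes. For annotation release, strand, counted feature and read length, the sources used here give nothing. The 92 spike-in rows held 0 counts and were left out, and 0 columns belonged to other samples.

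Groups were taken from sample titles. The main test was that of edgeR 4.0.16 under R 4.3.3 (filterByExpr, TMM, quasi-likelihood test, two-sided, treatment as the only term, Benjamini-Hochberg at 0.05). The SE of a log2 fold is its size over the root of the F statistic. DESeq2 1.42.0 and limma 3.58.1 voom were alternatives. The fits were tested on simulated data. No library was a copy of another (lowest chi-square per degree of freedom 8.06). That value belonged to EU replicates 1 and 2, which were more alike than any other pair (18.7 to 44.1). The cause was not tested.

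Transcript lengths and coding sequences came from GENCODE M21, which is on GRCm38, and its coordinates were not used. Coding sequences were aligned globally with Biopython 1.88. Figures were drawn with matplotlib 3.10.9.

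The members and lists were chosen with earlier results of these data known. Named genes were the members, 8 core release genes, up to 3 genes of each release and neuronal marker list with the smallest p, and the 5 genes most like each member by Pearson's r of log2 CPM (prior count 2). Some of these genes are not reported here. Wfs1, Fezf2, Etv1, Scnn1a, Rorb, Tbr1, Slc17a6 and the library orders were looked at after values were seen. Slc32a1 was named outside the rules for named genes. Same-numbered EU and PBS libraries had correlations of 0.064, 0.024 and 0.098 of their deviations from the group means. The labels state no pairs, so the main test did not use the numbers. Correlations this low over all tested genes cannot exclude a pairing.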

Additional observations from a re-analysis of the deposited data

How the results depend on the processing

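All 46 alternative values of the 3 complexin log2 folds and of the Cplx1 to Cplx2 ratio moved by less than the SD between libraries. For the fits that left out a library this was close to fixed in advance. Leaving out 1 of 3 libraries shifts a group mean by less than that SD, so the ranges below say more. Over other scalings, filters, tools and the replicate block, Cplx1 ranged from -0.002 to 0.03, Cplx2 from -0.18 to -0.15 and Cplx3 from 1.18 to 1.30. Leaving out each library gave -0.08 to 0.05 for Cplx1, which lies on both sides of 0, -0.20 to -0.14 for Cplx2, 0.96 to 1.66 for Cplx3 and 0.10 to 0.25 for the log2 ratio. The number of genes called, 0 in edgeR, was 248 of 31108 tested (0.797%) without a filter on low counts, 294 with DESeq2, 12 with limma voom and 18 with the replicate number as a block, and 0 to 20 when each library was left out, with 20 without PBS replicate 2 and 1 without EU replicate 1. The cause was not tested. Of release machinery genes 6 of the 56 were called without the filter (Slc17a6, Stx1a, Syn2, Syt2, Syt3 and Unc13c), 5 with DESeq2, and 0 to 1 when each library was left out. With the replicate block 0 release genes were called, and every library correlated best with the library of its own number, at 0.098 or less, which is a hint from the data and not the design. The mean log2 of Cplx1 over Cplx2 per kb was -0.48 by the longest transcript and turned to 0.26 by the median transcript length, where shorter models enter by construction. Of 65 alternative list medians, 1 moved beyond the SD. For Cplx3 the counting intervals were 2.12 to 3.05 and 2.46 to 3.35 CPM in PBS replicates 1 and 3 and 5.28 to 6.77 CPM in PBS replicate 2, so the spread between libraries was wider than counting error.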
